A study of Mus musculus with 101 samples.

Results

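Messenger RNA was sequenced from the subcutaneous white fat of mice that carried a mouse Inhbe vector (mInhbe) or a GFP control vector. The libraries were chosen by their labels and not by any measured value: 10 mInhbe and 10 GFP subcutaneous libraries, 20 of the 101 in the series. All 20 came from chow-fed WT males of the C57BL/6NTac strain that had been given an AAV8 construct, a serotype of adeno-associated virus, made to express its cargo in the liver. The labels name neither the promoter nor the age of the mice, and they give the libraries as biological replicates, numbered within each group. The libraries held 14399951 to 20170746 estimated counts, so that 3 counts, taken as the floor of detection, stood for 0.149 to 0.208 counts in each 1000000 (CPM). Other libraries are set beside these where stated: epididymal fat of the vector groups (10 and 10 libraries), and subcutaneous fat of chow-fed, untreated WT (n = 8) and Inhbe knockout (KO, n = 7) males of the same strain. Subcutaneous libraries of WT and KO mice on a high-fat diet shared the fit of the KO comparison and are not compared here.

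Inhbe encodes the inhibin beta E chain, made mainly by the liver, and a pair of such chains forms activin E. Activins belong to the TGF-beta family: they bind pairs of type I and type II receptors on the cell surface, which phosphorylate SMAD2 and SMAD3, and these move to the nucleus to switch genes on or off. ALK7, encoded by Acvr1c, is a type I receptor of this family found on fat cells and is known for restraining lipolysis, the breakdown of stored triglyceride. The title of the series names fat distribution and adipose lipolysis as its question.

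Inhbe itself (Entrez 16326, chr10:127349402-127351848, GRCm38.p6) had 0 counts in all 10 GFP libraries. In the mInhbe libraries it had 35 to 846 counts, with a median of 148. The lowest mInhbe level was 2.42 CPM and the highest 46.0 CPM, so every mInhbe library stood above every GFP library. The pooled mInhbe level was at least 880-fold higher than the floor, taken as 3 counts for the GFP group as a whole. The construct was made for the liver, and in which cells these transcripts arose was not tested.

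Of 13990 genes tested, 3801 were called, which is 27.2%: 2204 were higher (15.8%) and 1597 lower (11.4%) with mInhbe. A gene was called at an adjusted p under 0.05 in edgeR's quasi-likelihood test with Benjamini-Hochberg adjustment over all genes. Most of these differences were small. The median absolute log2 fold change of the called genes was 0.45, and 126 of them differed at least 2-fold, 74 upward and 52 downward. Adding a lymph node score to the model left 337 calls (2.41%), 144 higher (1.03%) and 193 lower (1.38%). Of the 3801 genes 309 were called in both fits. Where the call of a gene given with its fold change ended with the score, this is stated in the same paragraph. A value that follows a gene with no unit is the log2 fold change, mInhbe over GFP, ± SE. GFP library 2 stood apart from the other libraries on the first principal component of all genes (its value was -77.4), and without it 3144 genes were called. Leaving out 1 library at a time gave 2861 (without mInhbe library 3) to 5183 calls (without mInhbe library 4).

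The largest rises after Inhbe were in Adamtsl2, Sez6l, Lipf and Zim1, all with median levels under 3 CPM in the GFP libraries. Adamtsl2 encodes a secreted glycoprotein that binds latent TGF-beta binding protein in the extracellular matrix. Its level was 1.39 to 7.77 CPM in the GFP libraries (median 2.71) and 6.97 to 81.6 CPM with mInhbe (median 24.7). The groups met only at mInhbe library 8, whose value lay below that of GFP library 7. Adamtsl2 rose by 3.13 ± 0.38 (adjusted p = 3.84e-05) and by 3.98 with the score (adjusted p = 1.85e-08). Sez6l, a transmembrane protein known from neurons, ran from 0.504 to 1.65 CPM with GFP (median 1.02) and from 3.69 to 14.3 CPM with mInhbe (median 7.72), with no overlap. It rose by 2.94 ± 0.27 (adjusted p = 1.28e-06). Slc5a7, the high-affinity choline transporter of cholinergic neurons, rose by 2.29 ± 0.39 (adjusted p = 0.0007) from a median of 1.49 to 10.3 CPM, with overlapping ranges. Lipf, which encodes gastric lipase, was at or near the floor with GFP, at 0 to 0.726 CPM, and at 0.753 to 3.18 CPM with mInhbe. It rose by 2.82 ± 0.36 (adjusted p = 4.87e-05), a fitted fold that rests on few counts in the GFP libraries.

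Imprinted genes are expressed from 1 parental allele, and several are tied to growth and to the size of fat cells. Peg3, a zinc finger gene, lay between 17.9 and 70.0 CPM with GFP (median 42.7) and between 129 and 243 CPM with mInhbe (median 169). It rose by 1.89 ± 0.18 (adjusted p = 1.89e-06) with no overlap between the groups. Its neighbour on chromosome 7, Zim1, was 0.501 to 2.95 CPM with GFP and 5.27 to 12.0 CPM with mInhbe, again with no overlap (2.73 ± 0.25, adjusted p = 1.28e-06). Mest, a hydrolase-fold protein of the endoplasmic reticulum whose level is known to follow fat expansion, had medians of 61.5 and 289 CPM. The lowest mInhbe value, 99.2 CPM in library 8, lay below the highest GFP value of 122 CPM in library 7 (2.10 ± 0.28, adjusted p = 6.28e-05). All 3 calls stayed with the lymph node score. They were not shared by the whole imprinted list: of 18 members tested 4 were higher and 6 lower, beside 15.8% and 11.4% of all genes. The list's median was -0.00059 beside -0.0021 over all genes. Nnat, a brain-type proteolipid, fell by 0.91 on the log2 scale (adjusted p = 0.0035), and that call ended with the score (adjusted p = 0.11). With the score 3 members of the list were higher and 0 lower.

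**Figure D1:**
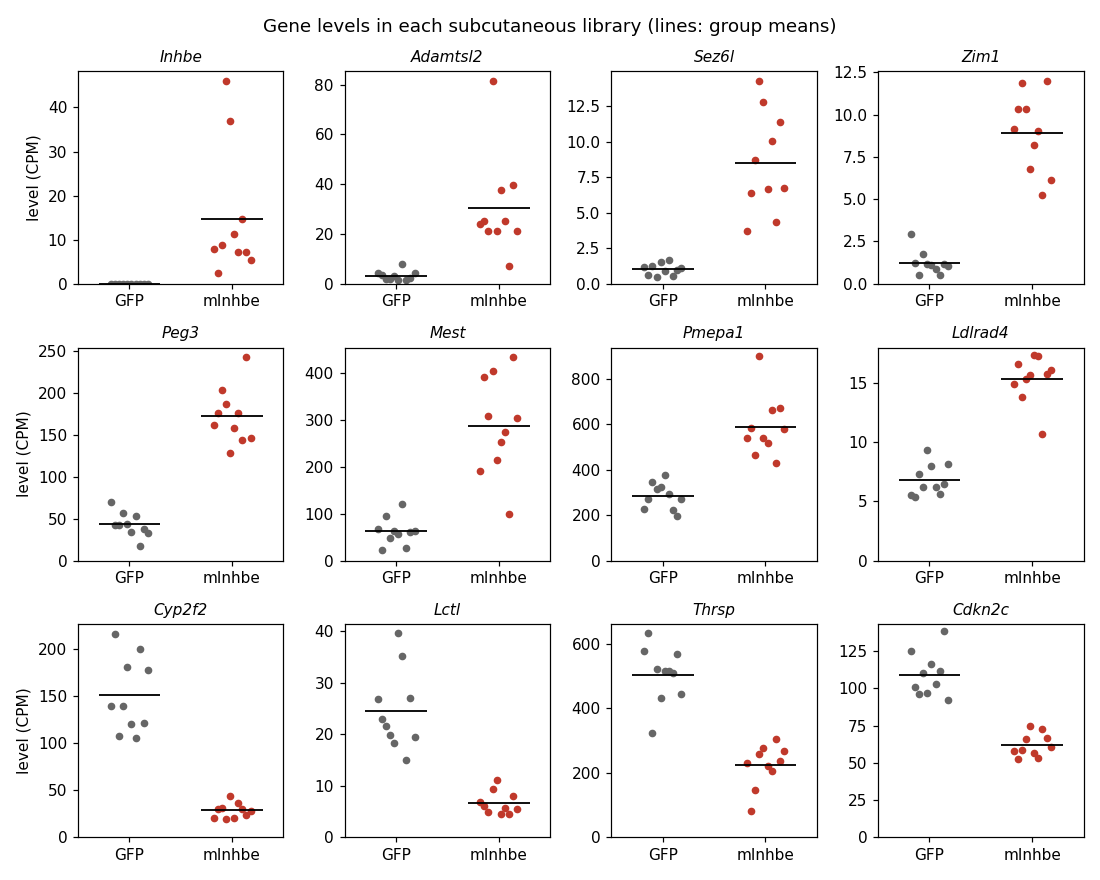
Level of 12 genes in CPM (linear axis) in each of the 10 GFP libraries (grey) and the 10 mInhbe libraries (red), with a line at each group mean. In Inhbe, Sez6l, Zim1, Peg3, Pmepa1, Ldlrad4, Cyp2f2, Lctl, Thrsp and Cdkn2c no point of 1 group reaches the other group, and in Adamtsl2 and Mest 1 mInhbe library, the one at 6.97 and 99.2 CPM, reaches into the GFP range.

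Among the genes that fell, Cyp2f2 had the smallest p of all genes. It encodes a cytochrome P450 best known from the airway and liver, where it oxidises small aromatic compounds. Its GFP libraries lay between 106 and 216 CPM (median 140) and its mInhbe libraries between 19.5 and 43.6 CPM (median 29.2), with a wide gap between the groups. It fell by 2.51 on the log2 scale (SE 0.17, adjusted p = 5.06e-09), and by 2.47 with the lymph node score. Lctl, a lactase-like glycosidase, fell by 1.99 from a median of 22.4 to 5.95 CPM. Slc25a10, the mitochondrial dicarboxylate carrier that exports malate for fatty acid synthesis, fell by 1.76, from 137 to 366 CPM with GFP (median 216) to 30.3 to 123 CPM with mInhbe (median 65.0). Cdkn2c, the cell cycle inhibitor p18, fell by 0.91 from a median of 107 to 59.8 CPM. In none of Cyp2f2, Lctl, Slc25a10 and Cdkn2c did the groups overlap, and all 4 calls stayed with the score. Hcar1, the lactate receptor through which lactate restrains lipolysis, fell by 0.98 (SE 0.12, adjusted p = 3.84e-05), from a median of 234 to 113 CPM, with ranges that overlapped at their ends.

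The major urinary protein genes, known from the liver, were also lower. All 6 major urinary protein genes tested fell, from -2.11 (Mup3) to -3.42 (Mup7), beside 11.4% of all genes that fell. All 6 stayed called with the score, beside 1.38% of all genes called lower with it. These pheromone carriers are near-identical paralogs, so the count of a single one is uncertain and the 6 calls are not independent. Of the 21 listed members 15 did not pass the filter on low counts. Summed over the list the GFP libraries held 16.2 to 73.6 CPM (median 39.0) and the mInhbe libraries 2.48 to 13.0 CPM (median 3.12). Alb, the serum albumin gene, ran from 16.7 to 41.8 CPM with GFP and from 2.70 to 13.1 CPM with mInhbe, without overlap (-1.59 ± 0.21, adjusted p = 5.3e-05; -1.33 with the score). Liver markers as a list did not all go this way. Of 12 markers 3 passed the filter, Alb fell and the other two were not called, with a list median of 0.39 and a highest value of 1.52. The liver score, the mean log2(CPM + 1) of the 12 genes, was 0.678 ± 0.22 with GFP and 0.634 ± 0.177 with mInhbe (SD, n = 10 and 10, 2-sided permutation adjusted p = 0.701). The liver list summed to 18.5 to 51.5 CPM with GFP and 5.40 to 20.5 CPM with mInhbe, and Alb averaged 25.4 and 9.00 CPM of this. The log2 of this sum was lower with mInhbe, at 4.79 ± 0.42 with GFP and 3.77 ± 0.57 with mInhbe (SD, 2-sided permutation adjusted p = 0.0012). What part carried-over liver transcript had in the fall of the major urinary protein genes, of Alb or of Cyp2f2 was not tested. A further transcript, ID100048885, for which no symbol was matched, fell from a median of 567 to 56.4 CPM (-2.78 ± 0.36, adjusted p = 5.57e-05).

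For 65 of the 13990 genes (0.465%) no mInhbe library reached into the range of the GFP libraries, 32 higher (0.229%) and 33 lower (0.236%). With the lymph node score 28 of the 32 and 33 of the 33 were still called, beside 2.41% of all genes and 309 of the 3801 called genes. The 65 genes were chosen by their separation in these same libraries, so these counts carry no test. The 32 higher genes included Slc8a1, the sodium-calcium exchanger (1.44 ± 0.15), and Hmgcs1, the enzyme that commits acetyl-CoA units to the mevalonate pathway (0.98 ± 0.17). Ptprk, a receptor tyrosine phosphatase, was also among them (0.68 ± 0.08). Genes named here outside the naming rule were chosen after their values were seen: Kcne1l, a potassium channel subunit (1.76 ± 0.28), Pnldc1, a 3'-to-5' ribonuclease known from piRNA trimming (-1.91 ± 0.24), and Gdf5, a BMP-type ligand (-1.55 ± 0.21). Grb14, an adaptor that inhibits the insulin receptor, fell by 1.40 (SE 0.20, adjusted p = 0.00012), from 21.4 to 55.2 CPM with GFP to 8.16 to 21.4 CPM with mInhbe, the ends of the ranges almost touching. Rbp4, the retinol carrier that fat secretes, fell by 0.85 (SE 0.12), from 133 to 197 CPM with GFP to 64.7 to 128 CPM with mInhbe.

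The bases before the start sites of 3 of these genes are given as a description. A link between their sequence and the direction of the change was not tested. Kcne1l, chosen after its values were seen, rose, and Slc25a10 and Cyp2f2 fell. Kcne1l and Slc25a10 were also called in the KO mice in the opposite direction. Capitals mark CAGAC or GTCTG, the short box that SMAD3 and SMAD4 are known to contact, searched on both strands as these 2 letter strings. The sequences are from RefSeq (GRCm38.p6), 250 bases ending 1 base before the annotated start, on the strand of the gene.
Kcne1l, chrX:142306199-142306448, minus strand: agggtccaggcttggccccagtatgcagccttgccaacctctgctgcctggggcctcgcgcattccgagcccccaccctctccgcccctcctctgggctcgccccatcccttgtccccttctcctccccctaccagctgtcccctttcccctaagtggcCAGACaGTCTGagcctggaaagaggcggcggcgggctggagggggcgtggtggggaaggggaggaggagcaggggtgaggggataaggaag
Slc25a10, chr11:120491587-120491836, plus strand: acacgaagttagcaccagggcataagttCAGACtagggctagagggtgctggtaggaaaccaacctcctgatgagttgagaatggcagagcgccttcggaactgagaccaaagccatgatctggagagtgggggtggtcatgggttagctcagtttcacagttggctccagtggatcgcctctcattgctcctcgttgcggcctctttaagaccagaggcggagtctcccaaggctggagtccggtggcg
Cyp2f2, chr7:27119705-27119954, plus strand: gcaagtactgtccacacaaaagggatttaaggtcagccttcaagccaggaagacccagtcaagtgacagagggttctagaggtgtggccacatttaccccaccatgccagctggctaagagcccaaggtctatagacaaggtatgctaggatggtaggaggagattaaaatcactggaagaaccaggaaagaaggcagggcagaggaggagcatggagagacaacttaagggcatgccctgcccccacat
Kcne1l held 2 such boxes, Slc25a10 held 1 and Cyp2f2 held 0. Of the genes without overlap that the RefSeq table covers, 13 of 27 higher and 7 of 24 lower ones held at least 1 box, beside 42.2% of all 32851 windows. This is a description of letters, and no binding was measured.

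Subcutaneous fat pads of the mouse can enclose lymph nodes, so lymphoid transcript was measured in each library. The lymph node score was the mean log2(CPM + 1) of 15 B-cell, chemokine and homing genes. It ran from 5.49 to 6.51 with GFP (median 6.07) and from 5.86 to 6.94 with mInhbe (median 6.44). The mInhbe mean was 0.407 higher (2-sided permutation p = 0.011, adjusted p = 0.033 over 15 tissue and cell scores), with the groups overlapping in 13 libraries. The mature fat cell score moved the other way, from 10.6 ± 0.17 with GFP to 10.3 ± 0.26 with mInhbe (SD, n = 10 and 10, permutation adjusted p = 0.021). In bulk tissue fewer cells of a type and less RNA per cell cannot be told apart. The T cell score (difference 0.373, permutation adjusted p = 0.031), the mast cell score (0.368, permutation adjusted p = 0.0093) and the progenitor and fibroblast score (0.168, permutation adjusted p = 0.021) were higher with mInhbe too. The score of 4 stromal and vessel genes of lymph nodes differed by 0.155 (permutation adjusted p = 0.19). What part of the lymphoid transcript came from enclosed lymph nodes was not tested.

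**Figure D2:**
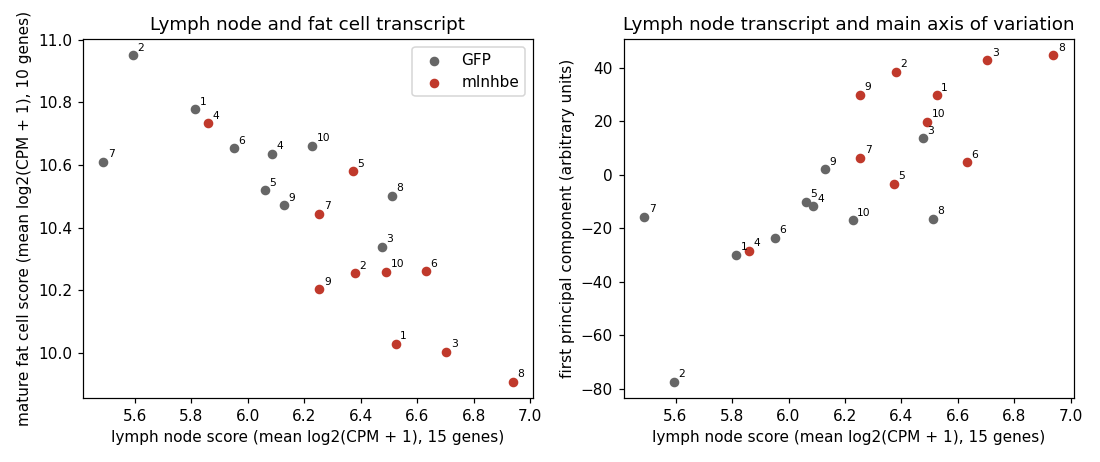
Lymph node score of each library (horizontal) and its mature fat cell score (left, both mean log2(CPM + 1)) or its value on the first principal component of all tested genes, which holds 38.5% of the variance (right). Grey points are GFP and red points mInhbe libraries, with their replicate numbers. GFP library 2 lies at -77.4 on the component, and mInhbe library 4 has the lowest mInhbe lymph node score, 5.86, among the GFP libraries.

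The score varied with many genes among libraries of the same vector. In the model of vector and score, 5185 of 13990 genes had a called slope on the score (37.1%), 2326 upward (16.6%) and 2859 downward (20.4%). Upward slopes included that of Ly9, a SLAM-family receptor of lymphocytes (1.09 log2 per unit of score). Downward slopes included Slc24a3, a cation exchanger (-1.01), and Ehd2, a caveola ATPase (-1.10). Among genes higher with mInhbe 36.5% had an upward and 0.771% a downward slope. Among genes lower with mInhbe 56.1% had a downward and 0.125% an upward one. Of genes whose slope was called within the GFP libraries alone and within the mInhbe libraries alone, 641 of 642 had the same sign. A dependence of the vector effect on the score was called for 0 genes by edgeR, with 598 genes (4.27%) at an unadjusted p under 0.05.

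With the score as a covariate the log2 fold changes of the called genes shrank to a median of 0.637 times their value without it, and their SEs grew to 1.08 times. Of the 126 genes that differed at least 2-fold, 54 stayed called. Restricting the comparison to the 13 libraries in the shared score range of 5.86 to 6.51 (7 GFP and 6 mInhbe) left 155 calls, with Adamtsl2, Sez6l, Peg3, Zim1, Mest, Pmepa1, Cyp2f2 and Lctl among them. Inhbe itself was not (adjusted p = 0.076), and this fit used fewer libraries.

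**Figure D3:**
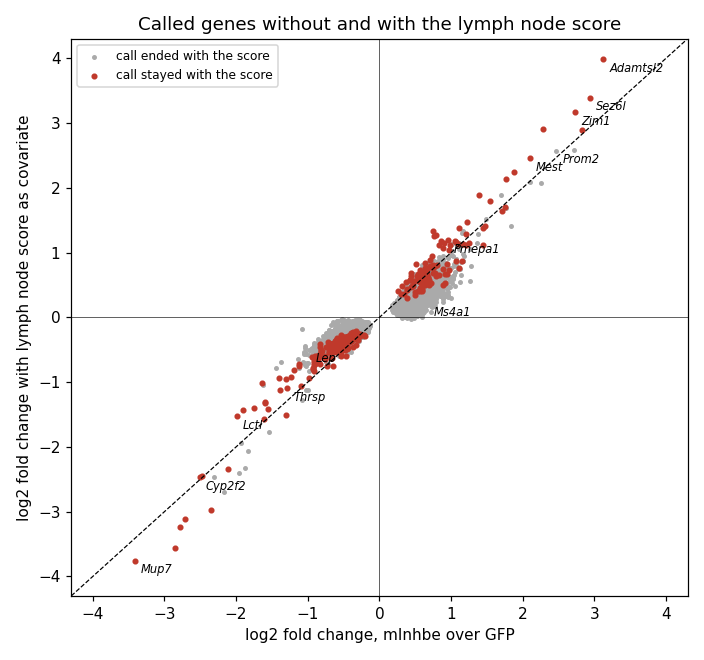
Log2 fold change of mInhbe over GFP for each called gene other than Inhbe, without (horizontal) and with (vertical) the lymph node score as a covariate; red genes stayed called and the dashed line marks equal values. Adamtsl2 at 3.13 and 3.98 lies above the line, Cyp2f2 at -2.51 and -2.47 near it, and most grey genes lie between the line and 0.

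Genes of lipolysis were measured because ALK7 signalling is known to restrain this pathway. Of 14 members 4 fell, beside 11.4% of all genes that fell, and 0 rose, with a median of -0.49 beside -0.0021 over all genes. Pnpla2 and Lipe, the triglyceride and diglyceride lipases, were singled out after their values were seen and did not pass the test. Pnpla2 ran from 2227 to 5595 CPM with GFP (median 3095) and from 1693 to 4093 CPM with mInhbe (median 2224), at -0.51 ± 0.19 (adjusted p = 0.053). Lipe lay at -0.37 ± 0.19 (adjusted p = 0.15). With the lymph node score Pnpla2 and Lipe stood at -0.08 (adjusted p = 0.83) and 0.07 (adjusted p = 0.86), so the sign of Lipe turned. The members that fell were Fabp4, the fatty acid carrier (-0.52 ± 0.09), Adrb3, the beta-3 adrenergic receptor (-0.67 ± 0.15), Mgll, the monoglyceride lipase (-0.66 ± 0.17), and Prkaca, the catalytic chain of protein kinase A (-0.56 ± 0.15). Fabp4 alone stayed called with the score (-0.37, adjusted p = 0.027), and the list's median was then -0.11. The GFP and mInhbe ranges of Fabp4, 8542 to 11503 and 6302 to 9522 CPM, overlapped.

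Of the metabolic lists, the respiratory chain had the highest share of called genes. Of its 25 genes 19 fell and 0 rose, beside 11.4% of all genes that fell, with a median of -0.37. Sdhb, the iron-sulphur subunit of succinate dehydrogenase, ran from 123 to 176 CPM with GFP and from 93.7 to 122 CPM with mInhbe, just short of overlap (-0.61 ± 0.09, adjusted p = 0.00024). The groups overlapped in Ndufa9 of complex I (-0.37 ± 0.07), Cox6c of complex IV (-0.38 ± 0.07) and Sdhc (-0.53 ± 0.10). With the score these 4 genes and no other member were called, and the median was -0.16. A downward slope on the score was called for 20 of the 25. Branched-chain amino acid breakdown had 9 of 15 lower, 0 higher and 4 lower with the score. Mccc1, a subunit of the leucine pathway's carboxylase, kept its size: -0.54 ± 0.07 without and -0.52 with the score (adjusted p = 4.87e-05 and 0.0007). Ivd, the isovaleryl-CoA dehydrogenase, lay at -0.74 ± 0.12, and Pccb, a propionyl-CoA carboxylase subunit, at -0.61 ± 0.10. Fatty acid oxidation had 7 of 16 members lower and 0 higher. Acaa2, the mitochondrial thiolase, fell by 0.71 (SE 0.12) and by 0.44 with the score (adjusted p = 0.011), the only one called in both fits.

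Lipogenesis genes, which build fatty acids from citrate, fell in 4 of 14 cases, beside the 11.4% of all genes that fell, and rose in 0. Thrsp, a nuclear factor of lipogenic tissue, ran from 324 to 632 CPM with GFP (median 515) and from 81.3 to 306 CPM with mInhbe (median 233), without overlap. It fell by 1.29 (SE 0.18, adjusted p = 0.00011), and by 1.10 with the score (adjusted p = 0.006). Scd1, the stearoyl-CoA desaturase, was among the most abundant transcripts, at 19304 to 41415 CPM with GFP and 15302 to 28361 CPM with mInhbe (-0.72 ± 0.15). Its call ended with the score (adjusted p = 0.11), as did those of Pnpla3 and of Mlxipl, the carbohydrate-response factor. That of Mlxipl also ended in 5 of the 20 fits that each left out 1 library. Without GFP library 2 Pnpla3 was no longer called even without the score (-0.52, adjusted p = 0.053). Triglyceride synthesis and fatty acid uptake had 0 of 12 members called. Dgat1, which adds the last acyl chain, lay at -0.42 ± 0.19 and Gpihbp1, the capillary anchor of lipoprotein lipase, at -0.28 ± 0.12. At an adjusted p of 0.094 and 0.093 both missed the threshold.

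Insulin signalling genes went both ways, with 3 of 12 lower and 1 higher, beside 11.4% and 15.8% of all genes. Insr, the insulin receptor, rose by 0.35 (SE 0.07) from a median of 166 to 230 CPM and stayed called with the score (adjusted p = 0.0305). Slc2a4, the insulin-responsive glucose transporter, fell by 0.96 (SE 0.21), and that call ended with the score (-0.49, adjusted p = 0.15). Of 10 adipokine genes 5 fell and 1 rose. Lep, the leptin gene, ran from 307 to 731 CPM with GFP and from 111 to 437 CPM with mInhbe, an overlap of several libraries (-0.98 ± 0.22, adjusted p = 0.0043). With the score it was at -0.50 (adjusted p = 0.19), while Rbp4 stayed called (-0.58, adjusted p = 0.0025). Nrg4, a neuregulin secreted by fat, rose by 0.30 (SE 0.08) and stayed called (adjusted p = 0.047). Fat-cell transcription factors had 1 of 10 called, a smaller share than the 27.2% over all genes. This was Klf15 (-0.75 ± 0.20), and its call ended with the score (-0.45, adjusted p = 0.29). Mature fat cell markers, some of them in the lists above, had 5 of 10 lower and 0 higher, with a median of -0.42 (-0.09 with the score), and 9 of the 10 had a called downward slope on the lymph node score.

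**Figure D4:**
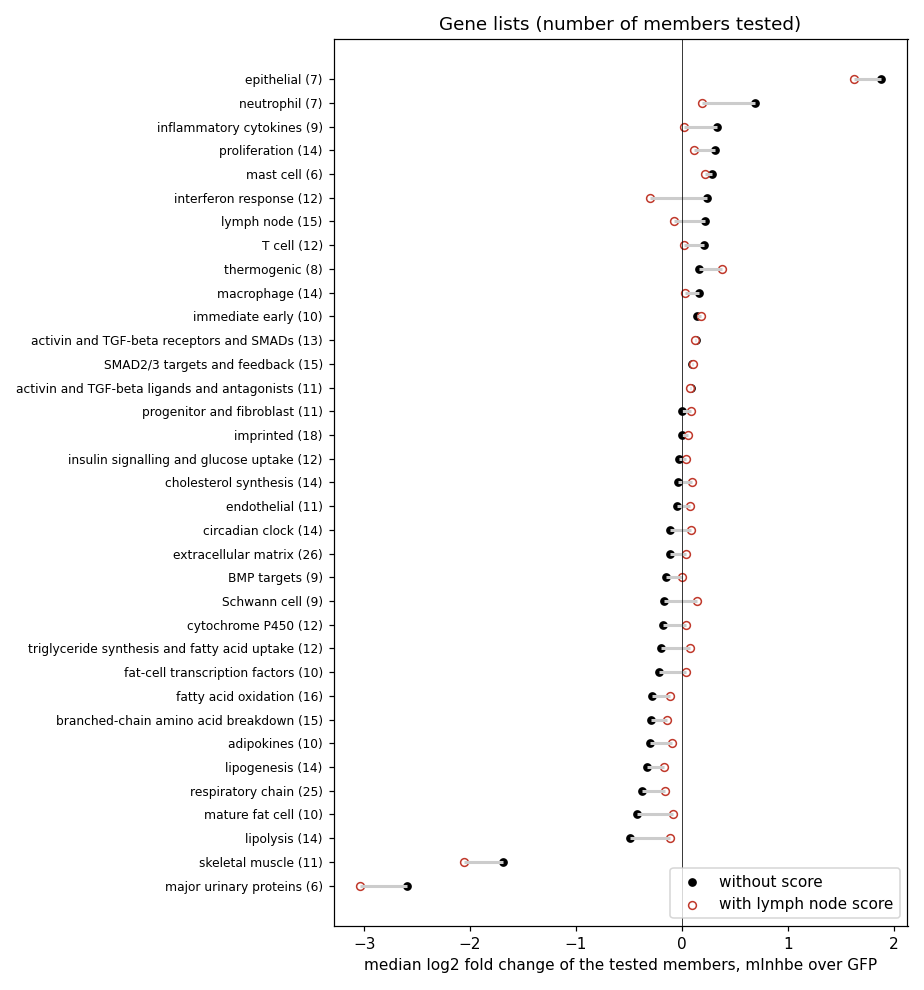
Median log2 fold change of the tested members of each gene list with at least 5 of them, without (black) and with (open red) the lymph node score; the number tested is in brackets. The medians of lipolysis (-0.49 to -0.11), respiratory chain (-0.37 to -0.16) and neutrophil (0.69 to 0.19) genes lie nearer 0 with the score, while those of the major urinary proteins (-2.59 to -3.04) and skeletal muscle (-1.69 to -2.05) lie farther from it.

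Components and targets of the TGF-beta pathway were measured next. Acvr1c, which encodes ALK7, was well expressed: 64.6 to 169 CPM with GFP (median 134) and 82.5 to 228 CPM with mInhbe (median 149). The difference was 0.18 ± 0.17 (adjusted p = 0.46), and the ranges overlapped almost throughout. Of 13 receptor and SMAD genes 3 rose, beside 15.8% of all genes that rose, and 0 fell, namely the TGF-beta type I receptor Tgfbr1 (0.62 ± 0.14), the activin type I receptor Acvr1b (0.36 ± 0.10) and the BMP type I receptor Bmpr1a (0.54 ± 0.15). None of the 3 was called with the score (adjusted p = 0.15, 0.056 and 0.094). Among ligands and antagonists other than Inhbe, Inhbb, the chain of activin B, fell by 0.69 (SE 0.20) and was not called with the score (adjusted p = 0.38).

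Of 15 SMAD2/3 targets and feedback genes 4 rose, beside 15.8% of all genes that rose, and 0 fell. Pmepa1, a membrane protein that holds SMAD2 and SMAD3 away from receptors, ran from 196 to 376 CPM with GFP (median 283) and from 431 to 903 CPM with mInhbe (median 560). It rose by 0.95 (SE 0.14, adjusted p = 0.00023), and by 1.19 with the score (adjusted p = 2.27e-05). Ldlrad4, of the same inhibitor family, ran from 5.35 to 9.37 CPM and from 10.7 to 17.4 CPM (1.07 ± 0.11, adjusted p = 5.76e-06). In neither gene did the groups overlap. Skil, which encodes the SMAD repressor SnoN, rose by 0.85 (SE 0.17), and Nedd9, a docking protein, by 0.54 (SE 0.11), both with an upward slope on the lymph node score and neither called with it (adjusted p = 0.095 and 0.098). BMP targets, read out by the parallel SMAD1/5 arm, had 0 of 9 called, with Id2 at 0.37 ± 0.15 (adjusted p = 0.066) and, with the score, at -0.0035.

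Of 26 matrix genes 4 rose (15.4%), a share near the 15.8% of all genes that rose, and 0 fell. Bgn, the proteoglycan biglycan, ran from 287 to 434 CPM with GFP and from 497 to 696 CPM with mInhbe, without overlap. It rose by 0.64 (SE 0.10), and by 0.84 with the score (adjusted p = 4.13e-05). Besides Bgn and Adamtsl2, Postn (0.81 ± 0.21) and the proteoglycan Dcn (0.38 ± 0.12) rose, and the calls of Postn and Dcn ended with the score (adjusted p = 0.25 and 0.21). Fibrillar collagen genes were in the same list and were not called.

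Some smaller groups had members called in both directions, and their counts stand beside 15.8% of all genes that rose and 11.4% that fell. Cholesterol synthesis had 2 of 14 higher and 2 lower, shares near those of all genes. Hmgcs1 rose, from a median of 146 to 264 CPM, while Fdft1, squalene synthase, fell by 0.67 (SE 0.11). Both stayed called with the score (adjusted p = 0.0066 and 0.014). The calls of Idi1 (0.48 ± 0.18) and Fdps (-0.33 ± 0.12) ended with the score (adjusted p = 0.31 and 0.66), and in 14 and 13 of the 20 fits that each left out 1 library. Cytochrome P450 genes had 3 of 12 higher and 2 lower. Cyp2e1 fell by 0.64 (SE 0.13) from a median of 3094 to 2032 CPM and by 0.75 with the score (adjusted p = 0.0085), and Cyp1b1, of fibroblasts, rose by 0.54 (SE 0.10), a call that ended with the score (0.42, adjusted p = 0.0796). Circadian genes had 2 of 14 higher (Clock 0.54 ± 0.16, Nr1d2 0.47 ± 0.13) and 3 lower (among them Hlf -0.50 ± 0.11 and Tef -0.39 ± 0.12), and 0 with the score. Immediate early genes, which respond within minutes to handling, had 0 of 10 called. Fos reached 59.7 CPM in mInhbe library 9 beside a mInhbe median of 4.84 CPM.

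Ucp1, the uncoupling protein of thermogenic fat cells, was the 1 gene called of 8 thermogenic genes tested. It ran from 6.84 to 88.2 CPM with GFP (median 12.9) and from 20.3 to 210 CPM with mInhbe (median 59.7). The ranges overlapped, and the highest GFP value came from library 6. Ucp1 rose by 1.70 (SE 0.50, adjusted p = 0.018), and with the score it was at 1.88 (adjusted p = 0.11). Of 14 proliferation genes 6 rose, beside 15.8% of all genes that rose, and 0 fell. Top2a, the topoisomerase of dividing cells, had medians of 17.0 and 35.9 CPM (0.91 ± 0.16) and stayed called (0.53, adjusted p = 0.048), whereas Mki67 (0.99 ± 0.22) and Bub1 (1.02 ± 0.23) did not (adjusted p = 0.16 and 0.25). Upward slopes on the lymph node score were called for 6 of these 14 genes.

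Markers of other cell types were measured beside these groups, and their counts stand beside the 15.8% of all genes that rose. Lymph node markers rose in 4 of 15 cases, among them the follicular genes Cr2 (0.84 ± 0.18), Ms4a1 (0.67 ± 0.16) and Cxcl13 (0.58 ± 0.16). None of the 15 was called with the score, which these genes themselves enter. The list summed to 749 to 1589 CPM with GFP and to 969 to 2196 CPM with mInhbe. Stromal and vessel genes of lymph nodes, at 0 of 4 called, included Glycam1 (0.03 ± 0.15) and Madcam1 (0.34 ± 0.15). In the model of vector and score none of these 4 had a called slope on the score. Their median slope was 0.13, beside 0.83 for the lymph node list, whose genes enter the score. T cell genes rose in 2 of 12 cases (16.7%), a share near that of all genes, and Cd28 (0.88 ± 0.16) was the 1 called with the score (0.50, adjusted p = 0.048). Macrophage genes rose in 3 of 14 cases (21.4%): the mannose receptor Mrc1 (0.67 ± 0.16), Clec7a (0.72 ± 0.17) and Lyve1 (0.46 ± 0.14). Mast cell genes rose in 2 of 6 cases, the stem cell factor receptor Kit (0.60 ± 0.12) and the granule protease Cpa3 (0.74 ± 0.15). Among neutrophil genes 1 of 7 rose (Cxcr2), and among interferon-response genes 1 of 12 (Ifit2, 0.79 ± 0.25), with upward slopes on the lymph node score in 4 and 9 members. Saa3 was the only inflammatory gene called of 9 tested (1.83 ± 0.52), and the calls of Saa3 and Ifit2 ended with the score (adjusted p = 0.19 and 0.60). Dpp4 (0.68 ± 0.16) and Pdgfra (0.29 ± 0.10), markers of fat progenitors, were higher and the matrix gene Col15a1 lower (-0.53 ± 0.16), among 4 higher and 1 lower of 11. The calls of Cxcr2 and Pdgfra ended in 11 and 12 of the 20 fits that each left out 1 library, and that of Ifit2 in 3. Endothelial genes rose in 2 of 11 cases (18.2%), Emcn (0.33 ± 0.09) and Tek (0.30 ± 0.08), a share near that of all genes, and the list's median was -0.05. None of the macrophage, mast cell, neutrophil, endothelial and progenitor genes was called with the score.

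Markers of neighbouring tissues were high in single libraries. Skeletal muscle genes summed to 38.9 to 3294 CPM with GFP and 28.1 to 588 CPM with mInhbe, and GFP libraries 5 and 8 had the highest muscle scores, 6.63 and 5.32. Myh1, a fast myosin, was called (-2.31 ± 0.69, adjusted p = 0.018), but its GFP mean rested on library 5 at 57.6 CPM, and without that library it was not called (-1.02, adjusted p = 0.088). The calls of Myh1, Myl1 and Mylk4 also ended with the score (adjusted p = 0.18, 0.12 and 0.13). Without libraries 5 and 8, Myl1 stood at -0.28 (adjusted p = 0.27) and Mylk4, a striated muscle kinase, at -0.0084 (adjusted p = 0.99). Epithelial genes were high in a subset of mInhbe libraries. Their sum ran from 3.00 to 27.1 CPM with GFP and from 2.99 to 132 CPM with mInhbe. Of 7 tested 3 rose, beside 15.8% of all genes that rose: Prom2 (2.47 ± 0.87), Epcam (1.37 ± 0.45) and Cdh1 (1.03 ± 0.35). Those calls ended in 10, 5 and 6 of the 20 fits that each left out 1 library, and so did those of the epithelial-type genes Dsp and Plet1 in 10 and 11. With the score none of Prom2, Epcam, Cdh1, Dsp and Plet1 was called (adjusted p = 0.19, 0.24, 0.22, 0.25 and 0.20). Clca3a2 (2.71 ± 0.81) was called in all 20 of those fits but not with the score (adjusted p = 0.16). Epididymis genes summed to at most 0.941 CPM, and 4 of 8 were at 0 in all libraries. Red cell genes had 1 of 4 lower (Hbb-bt, lost in 12 of those fits and with the score, adjusted p = 0.61). Schwann cell genes had 1 of 9 lower (Pmp22, -0.50 ± 0.09), a share near the 11.4% of all genes that fell. Pmp22 was called also with the score (adjusted p = 0.039). The part of these tissues in the results above was not tested beyond these fits.

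Within the mInhbe group 12 genes picked from the called ones were related to the Inhbe level and to the lymph node score, giving 24 relations over 10 libraries. For Pmepa1 the level fell as the score rose (Pearson r = -0.97, permutation adjusted p = 0.00048; Spearman rho = -0.915, permutation adjusted p = 0.014). Without the pair of libraries farthest from the median score r was -0.916. By edgeR the slope of Pmepa1 on the score was -1.18 ± 0.15 within the mInhbe libraries (adjusted p = 0.0024). Within the GFP libraries it was -0.26 ± 0.29 (adjusted p = 0.57). In the model of vector and score the slope of Pmepa1 was -0.66 ± 0.19 (adjusted p = 0.0099). A difference of slope between the vector groups was called for 0 genes by edgeR, so for Pmepa1 it was not called either. mInhbe library 4 had the lowest score and the highest Pmepa1, 903 CPM, and library 8 the highest score and 431 CPM. Adamtsl2 had the same sign and did not pass the adjustment (r = -0.836, permutation adjusted p = 0.09; rho = -0.673, permutation adjusted p = 0.239), and its relation rested on that pair of libraries, with r = -0.198 without them. Of the 12 relations with the Inhbe level none passed. The smallest p belonged to Cdkn2c (r = 0.707, permutation adjusted p = 0.097; rho = 0.624, permutation adjusted p = 0.29). Library 4, with the most Inhbe transcript (46.0 CPM), also had the most Adamtsl2 (81.6 CPM), while library 2, with the least Inhbe (2.42 CPM), had 25.4 CPM of Adamtsl2, beside a group median of 24.7 CPM.

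The same genes were then read in KO mice, which share no library with the vector groups. KO against WT subcutaneous fat on chow had 36 calls among 14220 genes tested (0.253%). Of these 36 genes 27 were called with mInhbe in the opposite direction, which is 75% of the KO list and 0.71% of the vector list, and 1 in the same direction. Pmepa1 fell from a WT range of 177 to 271 CPM to 35.7 to 89.9 CPM in KO (-1.76, adjusted p = 4.66e-05). Mest lay between 15.7 and 56.0 CPM in WT and between 1.47 and 3.74 CPM in KO (-3.75, adjusted p = 1.69e-07), with no overlap in either gene. Peg3 (-2.37), Zim1 (-2.39), Sez6l (-3.50), Slc5a7 (-3.90) and Kcne1l (-1.96) fell as well. The KO medians of Sez6l (0.140 CPM) and Slc5a7 (0.139 CPM) lay under the floor, which was 0.170 to 0.213 CPM in the KO libraries. Their fitted folds rest on few counts, and their WT and KO ranges overlapped. Sez6l reached 0.339 CPM in KO beside a WT minimum of 0.264 CPM, and Slc5a7 0.849 beside 0.463 CPM. Rbp4 (0.75), Slc25a10 (0.97), Lctl (0.95), Cdkn2c (0.67) and Pnldc1 (1.11) rose in KO. Vnn1, a pantetheinase chosen after its values were seen, rose with mInhbe (1.26 ± 0.18) and fell in KO (-2.48, adjusted p = 6.04e-06). Adamtsl2 was at -1.03 (adjusted p = 0.49), from a WT median of 0.881 CPM, and Cyp2f2 at 0.84 (adjusted p = 0.16), neither called.

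Of the 65 genes without overlap between the vector groups, 64 were tested in the KO comparison. The sign was opposite there for 28 of 31 higher and 33 of 33 lower genes, and 5 of each were called, with 0 called in the same direction. The sign was opposite for 89.9% of the 308 genes called both with and without the lymph node score, 71.2% of all genes called with mInhbe and 61.5% of all genes tested in both. Genes are not independent of each other, so these shares carry no test.

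**Figure D5:**
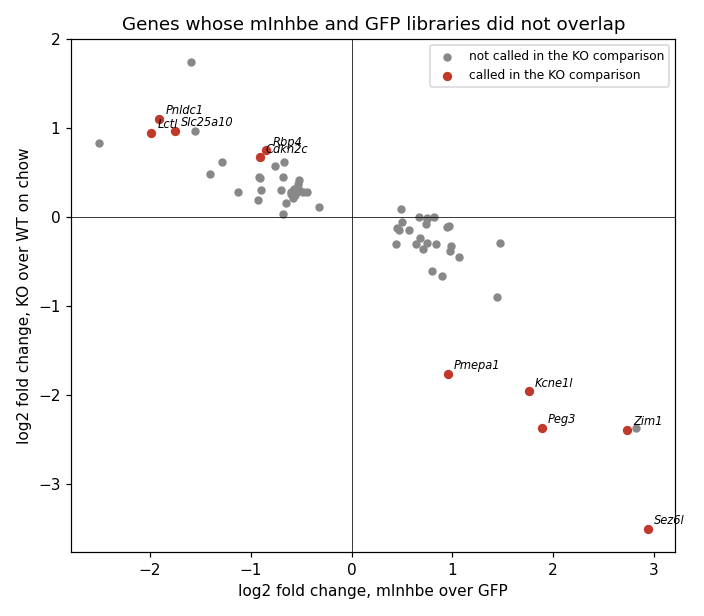
Log2 fold change of mInhbe over GFP (horizontal) and of KO over WT on chow (vertical) in subcutaneous fat for the 64 genes without overlap between the vector groups that were tested in both. The 10 genes called in the KO comparison are red and named, 5 at the lower right and 5 at the upper left.

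In epididymal fat of the same vector groups 173 of 14850 genes were called (1.16%), with 0.761% higher and 0.404% lower. Of the 65 subcutaneous genes without overlap 64 were tested there, and 9 of 31 higher and 8 of 33 lower ones were called in the same direction. Adamtsl2 (3.27 ± 0.20, adjusted p = 1.55e-09), Sez6l (2.54), Slc5a7 (3.67), Mest (2.38), Pmepa1 (1.43) and Bgn (0.70) rose in both depots, and Cyp2f2 (-2.72), Grb14 (-1.22), Thrsp (-0.92) and Cdkn2c (-0.84) fell in both. Peg3 (1.10, adjusted p = 0.13), Zim1 (2.01, adjusted p = 0.062) and Lctl (-0.80, adjusted p = 0.32) were not called in epididymal fat. In the test of a depot difference given next, Lctl was called (1.17, adjusted p = 0.034). Peg3 (-0.80, adjusted p = 0.13) and Zim1 (-0.74, adjusted p = 0.38) were not. A difference of the vector effect between depots was called for 2081 of 15416 genes (13.5%), 4.09% of genes with a more positive and 9.41% with a more negative epididymal effect, among them Slc8a1 (epididymal minus subcutaneous -0.97 on the log2 scale, adjusted p = 0.013), Lep (1.21, adjusted p = 0.013) and Acvr1c (-0.99, adjusted p = 0.028). All 3 stayed called without GFP epididymal library 8, which stood apart with 13588 counts of Ucp1. With the replicate number as a block within each vector group 4 genes were called, none of these 3 among them, and whether a number marks 1 mouse in both depots is not given. The depot fits held no lymph node score. With the score the subcutaneous call of Lep ended (-0.50, adjusted p = 0.19) and that of Slc8a1 stayed (1.37, adjusted p = 0.00014). A depot difference with the score was not tested. Of the genes without overlap, 13 of 32 higher and 13 of 33 lower ones had a called depot difference without the block, beside 13.5% of all genes. Those genes were chosen by their subcutaneous values.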

How the data were processed

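Poly(A)-selected mRNA (500 ng of RNA, 14 PCR cycles, adapters with molecular identifiers) was sequenced with 76 paired cycles, per the labels' protocols. The authors deposited a table of estimated counts per Entrez gene. The build was mm10, per the submitters' processing notes, whereas the sources used here name no aligner, no counter and no use of the identifiers. Of the table's values 2.95% were not whole (tolerance 1e-06), and the estimated counts, as deposited, were rounded to whole numbers. Symbols and positions were matched from RefSeq (GRCm38.p6) for 24375 of 24475 IDs, and the 100 others held 1.71 to 4.53% of the counts of a library.

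Groups came from the labels. filterByExpr kept genes (min.count of 10, min.total.count of 15), TMM set the scaling, and the test was that of edgeR 4.0.16 (robust quasi-likelihood F test, Benjamini-Hochberg, adjusted p under 0.05) in R 4.3.3. CPM are per library total, without TMM. A second model added the lymph node score. Depot difference was the vector by depot interaction over 40 libraries, without the lymph node score. KO against WT was the chow contrast in a fit over all KO-table subcutaneous libraries, those on a high-fat diet included. The gene filter, the scaling and the spread between libraries therefore also came from high-fat diet mice. Scores and relations were tested with 100000 permutations in Python 3.11.15. On simulated counts for 13990 genes the mInhbe comparison recovered 62.7% of 1.5-fold and 89.6% of 2-fold changes. No library pair of a group matched another within sampling noise. The SE of a fold change includes the spread between libraries, whereas the floors cover counting error only.

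Members and lists were chosen with earlier results of these data known. Named genes are Inhbe and Acvr1c, and the 10 largest rises and falls among called genes of at least 1 CPM on average. Added were the 10 smallest p of each direction and the 5 smallest p of each direction with the score. The 5 smallest p of each sign for slopes on the score followed, with up to 4 called (or 2 uncalled) members of each list. Pnpla2, Lipe, Kcne1l, Pnldc1, Gdf5 and Vnn1 were chosen after their values were seen. Of the genes this rule selects, 2 are not reported here. Alternatives were RLE scaling, DESeq2 1.42.0, limma-voom (limma 3.58.1), other filters, other covariates, a replicate block and leaving out libraries.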

Additional observations from a re-analysis of the deposited data

Results flagged for a closer look

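In 22 of 344 groups of 10 libraries tested, 1 library lay apart from the others, by a gap to its neighbour that was large for the group's range (Dixon's test at the 95% level). Chance alone gives this in about 1 in 20 groups. Among the mInhbe libraries, library 4 was low in Ptprk (12.4 CPM), Arhgap30 (78.8 CPM) and Cxcl13 (50.4 CPM), library 8 was low in Ldlrad4 (10.7 CPM) and Alb (2.70 CPM), and library 5 was low in Bmpr1a (59.6 CPM). Library 6 was high in Madcam1 (2.97 CPM), and library 9 was high in Fos (59.7 CPM), Fosb (40.6 CPM) and the immediate early score (5.34). Library 2 was low in the lipogenesis score (7.58). Among the GFP libraries, library 2 was high in Dgat1 (410.3 CPM) and in the score of fat-cell transcription factors (7.08), and low in Insr (119 CPM) and Postn (50.5 CPM). Library 1 was low in ID100048885 (178 CPM) and stood apart in the imprinted score (4.63). Library 3 was high in Fosb (13.1 CPM), in the immediate early score (5.22) and in the inflammatory cytokine score (3.04). Library 6 was high in the thermogenic score (4.02) and library 9 in the liver score (1.23). Scores are means of log2(CPM + 1).

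For 35 named genes the vector effect differed between the depots by the interaction test, which held no lymph node score. Values are the epididymal minus the subcutaneous log2 effect. Negative values were found for Cr2 -1.89, Ms4a1 -2.52, Glycam1 -3.75, Cd28 -1.33, Mrc1 -0.86, Clec7a -0.69, Cpa3 -0.99, Dpp4 -0.91, Dcn -0.61 and Ifit2 -0.97, whereas Col15a1, in the same marker list as Dpp4 and Dcn, had 0.86. Negative values were also found for Acvr1c (-0.99), Tgfbr1 (-0.75), Bmpr1a (-0.66) and Insr (-0.61), and Slc8a1 (-0.97), Bhlhb9 (-0.90), Cyp1b1 (-0.58), Cyp1a1 (-1.43), Nr1d2 (-0.83), Clock (-0.73) and Ucp1 (-7.15). Positive values were found for Lep 1.21, Mgll 0.92, Gpihbp1 0.70, Slc25a10 1.07, Sdhc 0.56, Pccb 0.48, Fdft1 0.59, Pecr 0.68 and Alb 0.95. They were also found for Lctl (1.17), Trabd2b (1.02), Slc24a3 (0.63) and Inhbb (0.91). Of the 35 genes 32 were still called without GFP epididymal library 8, and 0 with the replicate block. That library held 13588 counts of Ucp1, 80 of Glycam1, 181 of Ms4a1 and 115 of Cr2, beside at most 303, 2, 23 and 22 in the other epididymal libraries. Without it the difference was -0.55 for Ucp1 (adjusted p = 0.79), 0.84 for Glycam1 (adjusted p = 0.5) and -0.90 for Cr2 (adjusted p = 0.13), by edgeR.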

How the results depend on the processing

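The 3801 calls between the vectors became 337 with the lymph node score, 429 with the T cell score, 334 with summed lymph node CPM, 471 with the score and without GFP library 2, and 155 in the shared score range. limma-voom gave 5786. RLE (3773), DESeq2 (4400), no filter (3491) and the replicate block (3175) stayed within 1.5 times, and leaving out 1 library gave 2861 to 5183. The replicate numbers did not pair the groups (correlations -0.39 to 0.50, 1 of 10 best with its own number). The 5185 slopes became 1089 for the T cell score. The 2081 depot differences became 4 with the block, and the 36 KO calls 23 with the block and 119 with DESeq2. Of 119 called named genes 54 stayed called with the lymph node score and 103 with the block.

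Of all 3801 called genes 5 turned sign with the lymph node score. Of the named genes, those that turned were not called. In the order lymph node score, T cell score, summed CPM, shared range, and score without GFP library 2, Arhgap30 was -0.18, -0.12, -0.18, -0.091 and -0.18, H2-Ob -0.16, -0.077, -0.17, -0.049 and -0.16, Ripor2 -0.12, -0.071, -0.12, -0.039 and -0.12, Trim67 0.23, 0.19, 0.23, 0.19 and 0.23, and Glycam1 -0.16, -0.19, -0.17, -0.089 and -0.16. Leaving out 1 library gave -0.056 to 0.10 for Glycam1, which turned without GFP library 7 or 10 or mInhbe library 5 or 8. Tln2 was 0.058, 0.056 (summed CPM), 0.023 (shared range) and 0.058. Lipe was 0.070, 0.068 (summed CPM) and 0.075 (without GFP library 2). Id2 was -0.0035 and -0.0028 (without GFP library 2), and Gpihbp1 0.0084 in the shared range. With DESeq2 Fos was -0.026 and Fosb -0.16. Leaving out 1 library gave -0.0093 to 1.24 for Fos and -0.12 to 1.87 for Fosb, both lowest without mInhbe library 9. The cause of these changes was not tested. Counts at or under the floor of 3 limit, among other genes, Lipf, Prom2, Clca3a2, Dsp, Plet1 and the major urinary protein genes. The lowest GFP value of Slc5a7 (0.208 CPM) and the lowest mInhbe value of Gdf5 (0.176 CPM) were at this floor.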
